A study of Mus musculus with 14 samples.

Results

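The genes described here are 35 genes of mitochondrial carbon metabolism: 20 of the tricarboxylic acid (TCA) cycle and pyruvate dehydrogenase, and 15 of fatty acid β-oxidation and the electron transfer flavoproteins. They were listed by name, with earlier results of these data known, so the counts below are not those of an independently chosen list. A probe set with a single matching symbol existed for every one, and all 35 were among the 10916 genes tested, out of 18193 genes with such a probe set. They were measured on 14 Affymetrix arrays of mouse CD4 T cells, taken from spleen and lymph nodes and cultured for 5 days per the labels' protocols. The design text gives a longer period. All cultures received IL-2 at 100 U/ml. Th17 cultures had TGF-β1 at 5 ng/ml, IL-6 at 20 ng/ml, IL-1β at 10 ng/ml, IL-23 at 10 ng/ml, IL-21 at 10 ng/ml and TNF-α at 20 ng/ml. Treg cultures had TGF-β1 at 5 ng/ml, and Th1 cultures IL-12 at 10 ng/ml. Each condition was run without a further addition (control) or with acetate, a short chain fatty acid, at 10 mM. For the treated Treg and Th1 samples the labels say acetone where the design text says sodium acetate, and these arrays are called acetate arrays here. There were 3 control and 3 acetate arrays for Th17 cultures, and 2 of each for Treg and for Th1 cultures. The sources used here state no strain, sex or age of the mice, nor whether replicate arrays stand for different mice or cultures. P-values therefore measure the spread between these arrays, which may be technical.

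The TCA cycle oxidizes acetyl-CoA in the mitochondrial matrix and hands its electrons to the respiratory chain, partly through succinate dehydrogenase, which is both a cycle enzyme and a chain complex. β-oxidation shortens fatty acids that entered on carnitine, and its acyl-CoA dehydrogenases pass electrons to the electron transfer flavoprotein and on to ubiquinone. Acetyl-CoA from pyruvate, fatty acids or acetate meets in citrate synthase. In T cells, regulatory and memory cells are known for their use of fatty acid oxidation, and effector cells for glycolysis.

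The labelled cell types were checked against 7 marker genes, of which some followed the labels and others did not. Il17a, the defining Th17 cytokine, had a mean signal of 652 on Th17 control arrays, against 4.39 on Treg and 8.73 on Th1 control arrays. Foxp3, the Treg lineage factor, stood at 332 on Treg control arrays and fell to 59.1 with acetate (log2 difference -2.43, limma adjusted p = 0.00164). Its mean on Treg acetate arrays thus lay below that of Th17 controls, 82.8, with ranges that overlap. Ikzf2, another Treg gene, averaged 596 on Treg control arrays against 107 and 134 on Th17 and Th1 controls. Among control groups Tbx21, the Th1 lineage factor, was highest on Th1 arrays at 315, against 190 in Treg and 54.1 in Th17. Ifng, the Th1 cytokine, read 887 to 2990 on Th1 and 1090 to 1240 on Treg controls, which overlap. Cxcr3, a Th1 chemokine receptor, averaged 84.4 on Th1 but 448 on Treg controls, and the Treg checkpoint gene Ctla4 3200 on Treg and 3060 on Th17 controls. Deposited signals differed in scale between arrays (trimmed means of 53.2 to 116), so arrays were quantile normalized, and a value below is a normalized signal unless called a log2 difference. A log2 difference is on the scale log2(signal + 3). Arrays of a group correlated at 0.94 to 0.983 over genes. The ratio of the 3-prime to the 5-prime Gapdh control, a sign of RNA quality, was 1.22 and 1.23 on the Treg control arrays, 1.02 and 1.03 on the Treg acetate arrays, and 0.986 to 1.1 on all others, so it moved with treatment in Treg cultures. The same ratio for actin was 1.42 and 1.33 on the Treg control and 1.31 and 1.36 on the Treg acetate arrays, which overlap, and 1.1 to 1.4 on all others. The part of RNA quality in the Treg results was not tested. A control for 18S ribosomal RNA gave 3130 on Treg control replicate 1, 2810 to 4150 on Th17 arrays, and 298 to 1580 on Th1 arrays. The other 3 Treg arrays gave 506 to 816. No label names a batch, and the protocols of Th17 samples are worded unlike those of Treg and Th1 samples, so a batch by culture cannot be told apart from the culture.

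With acetate, a large share of these genes stood higher. In Th17 cultures 14 of 35 rose and 1 fell (limma, Benjamini-Hochberg adjusted p under 0.05 over all genes tested), where 11.7% of all genes tested rose and 8.66% fell. In Treg cultures 5 rose and 0 fell, against 7.04% and 5.44% of all genes. In Th1 cultures 3 rose and 0 fell, against 2.07% and 1.91%. For the mean effect, which averages the 3 cultures with equal weight, 17 rose and 1 fell, against 17.6% and 14.1%. As 34 of the 35 genes lie above the median level of the genes tested, the share that rose among such genes stands beside these counts: 13.4% in Th17, 8.08% in Treg, 1.87% in Th1 and 18.9% for the mean effect. The median log2 difference of the 35 genes was 0.31 in Th17 cultures, 0.19 in Treg cultures and 0.34 in Th1 cultures, beside 0.01, 0.03 and 0.03 over all genes tested.

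Both pathways took part. Of the 20 TCA cycle and pyruvate dehydrogenase genes, 6 rose and 1 fell in Th17 cultures, 3 rose in Treg and 1 in Th1 cultures. Of the 15 fatty acid oxidation genes, 8 rose in Th17 cultures, 2 in Treg and 2 in Th1 cultures. All 5 genes that rose in Treg cultures and all 3 that rose in Th1 cultures also rose in Th17 cultures, and Suclg1 and Etfb rose in every culture. For 11 genes every acetate array lay above every control array of its own culture in all 3 cultures (Cs, Idh2, Suclg1, Sdhc, Fh1, Mdh1, Acads, Hadha, Etfa, Etfb and Etfdh), where 7.83% of all genes tested did so. For 0 genes of the 35 was every acetate array lower in all 3 cultures, where 6.7% of all genes were. The limma F test found 0 of 35 genes whose acetate effect differed between cultures, against 0.797% of all genes, and 6 of the 35 had an unadjusted p under 0.05. A gene called in Th17 and not in Treg or Th1 cultures is therefore not shown to differ between them.

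These counts rest on the scaling of the arrays. Without normalization the median of all genes tested moved to -0.29 in Th17 cultures, -0.13 in Treg and 0.23 in Th1 cultures. The medians of the 35 genes were then 0.06, 0.07 and 0.61, in each case above that of all genes, but the genes called numbered 2 in Th17 (Mdh1 higher, Suclg2 lower), 0 in Treg and 1 (Etfb) in Th1 cultures. The median of the 20 TCA genes in Th17 cultures turned from 0.15 to -0.14. For the mean effect 13 genes were still called, all of them higher. Leaving out 1 array moved the Treg count to 0 (without acetate replicate 1), 1 (without either control array), 3 (without acetate replicate 2) or 8 (without either Th1 acetate array). The Th1 count was 0 without Th17 control replicate 3 or Th1 acetate replicate 2, 1 without either Treg control array, and 6 without Th17 acetate replicate 1.

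**Figure D1:**
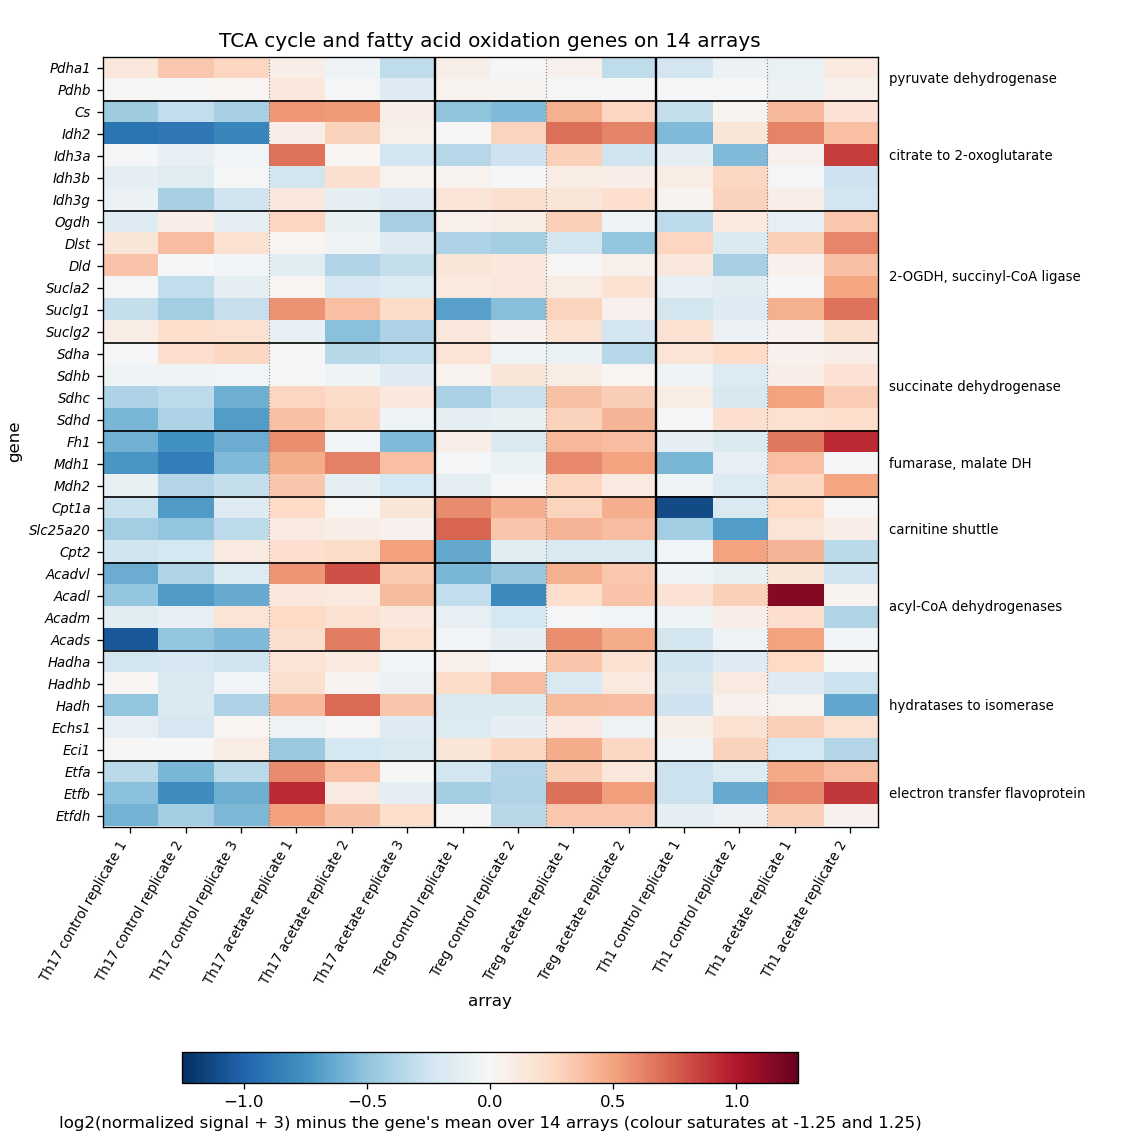
Each row is 1 of the 35 genes in pathway order, each column 1 of the 14 arrays, and the colour is log2(normalized signal + 3) minus the mean of that gene over all arrays (red higher, blue lower). Averaged over the 35 genes, the 3 Th17 control arrays stood at -0.27, -0.28 and -0.22 and the Th17 acetate arrays at 0.23, 0.12 and -0.03. Treg arrays stood at -0.07 and -0.09 in controls and 0.24 and 0.15 with acetate. Th1 arrays stood at -0.14 and -0.05 in controls and 0.24 and 0.15 with acetate.

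**Figure D2:**
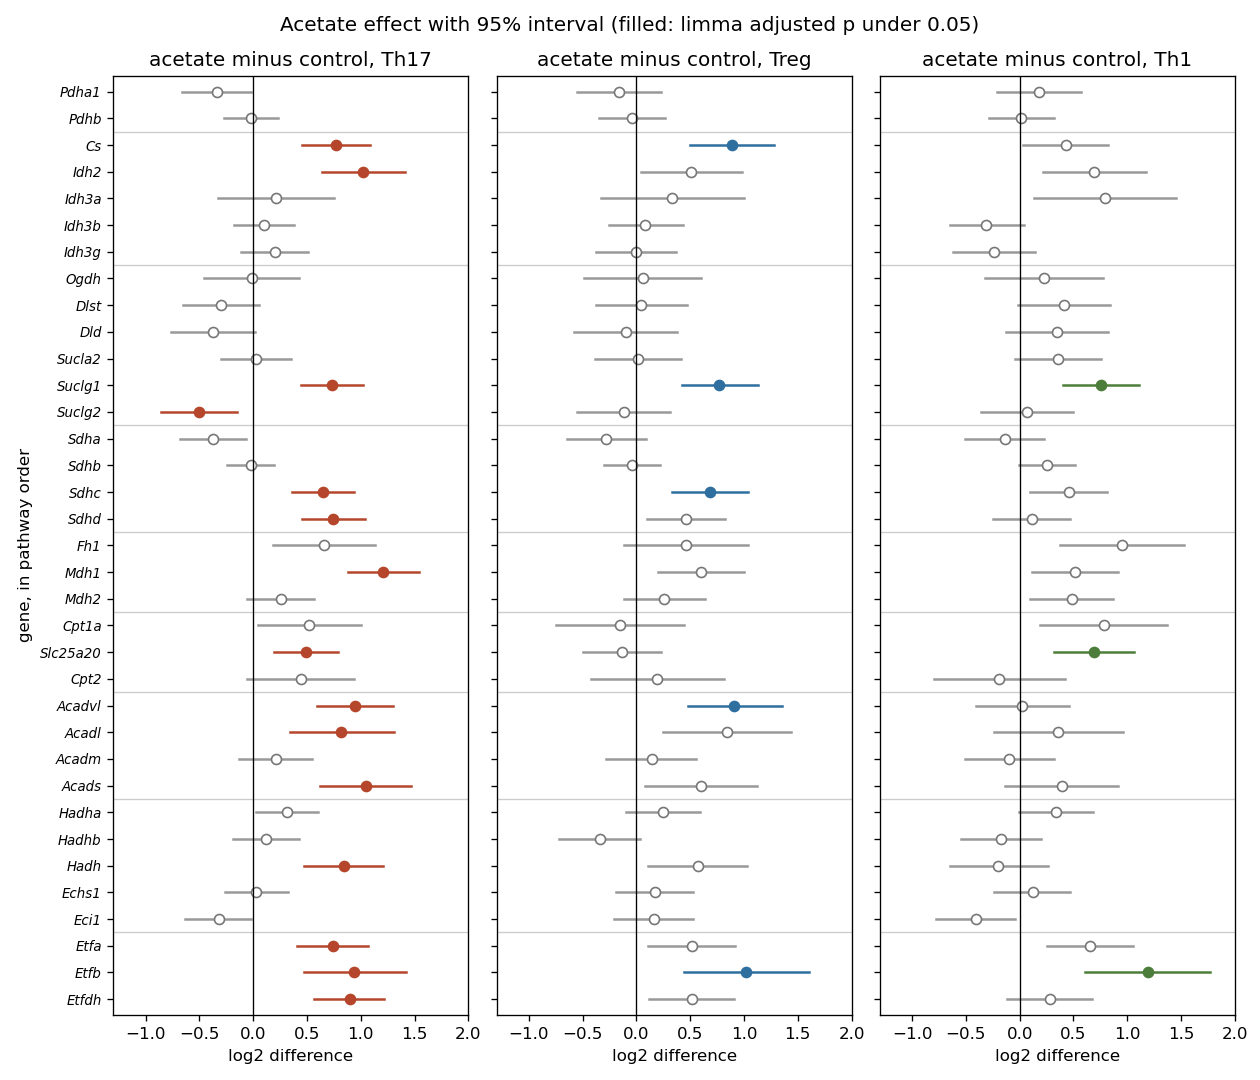
Points are log2 differences, acetate minus control, for each gene in Th17 (3 against 3 arrays), Treg (2 against 2) and Th1 (2 against 2) cultures, with limma's 95% interval as a line; filled points have an adjusted p under 0.05. Filled points number 15, 5 and 3 in the 3 panels, and the single one below 0 is Suclg2 in Th17 cultures.

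Markers of T cell subsets, of T cells and of other cells also differed with acetate, and their part in these results was not tested. In Th17 cultures Il17a rose from a mean of 652 to 4340 (log2 difference 2.69, limma adjusted p = 1.61e-04). Foxp3 fell there from 82.8 to 14.2 (-2.34, adjusted p = 3.39e-04). Cxcr3 (2.28, adjusted p = 0.00203) and Tbx21 (1.42, adjusted p = 0.0363) also rose. Ikzf2, Ctla4 and Ifng were not called. In Treg cultures, where Foxp3 fell, Il17a rose from 4.39 to 13.2 (adjusted p = 0.0401). The 7 subset markers were not called in Th1 cultures. The summed signal of 6 T cell markers (of 8 listed) was 8270 to 9310 on Th17 control and 6020 to 8060 on acetate arrays, 11600 to 13000 and 7790 to 8870 for Treg, and 11200 to 11300 and 6520 to 8310 for Th1 cultures. Cd28, of the same list, went the other way. It rose in Th17 cultures from a mean of 736 to 1340 (log2 difference 0.87, limma adjusted p = 0.00122). Its control and acetate means were 959 and 1060 in Treg and 1210 and 1530 in Th1 cultures, without a call. The means of Cd3e, Cd3d, Cd3g, Cd4 and Cd5 were lower with acetate in every culture. In bulk RNA, fewer cells of a type and less RNA per cell cannot be told apart. B cell markers, 5 of 6 listed, summed to 859 to 1420 and 284 to 784 in Th17, 2450 to 2790 and 911 to 1650 in Treg, and 568 to 744 and 118 to 126 in Th1 cultures. Most of that was Ighm, with group means of 75.8 to 2520, while Cd79a and Ms4a1, the defining B cell genes, were at most 14.8 and 9.01 on any array. Cd79b, also of B cells, read 67.8 to 76.8 on Treg control and 66 to 76.4 on Treg acetate arrays, and averaged 18.8 to 47.1 in the other groups. The 7 macrophage and dendritic cell markers summed to 78.4 to 96.9 and 109 to 196 in Th17, 125 to 157 and 200 to 222 in Treg, and 112 to 184 and 144 to 217 in Th1 cultures. Cd68 rose in Th17 cultures from a mean of 18 to 91.5 (log2 difference 2.10, adjusted p = 0.00257) and averaged 82 and 81.8 in Th1 cultures, while Lyz2 and Cd14 were at most 13.3 and 13 on any array. CD8 and NK cell markers, 4 of 5 listed, summed to 874 to 1440 and 478 to 1230 in Th17, 1380 to 1890 and 972 to 1140 in Treg, and 330 to 358 and 413 to 568 in Th1 cultures. Klrd1, an NK cell receptor, made up most of these sums. Cd8b1, a CD8 subunit, went the other way in Th17 cultures, where it rose from a mean of 40.9 to 147 (log2 difference 1.78, adjusted p = 0.00138), and averaged 53.1 and 116 in Treg cultures (adjusted p = 0.0526).

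Pyruvate dehydrogenase, the entry from glycolysis, was not called in any culture. Pdha1, its E1 alpha subunit, had signals of 480, 551 and 526 on Th17 control and 462, 420 and 350 on Th17 acetate arrays, which is -0.34 ± 0.15 on the log2 scale (± the SE; adjusted p = 0.12). The acetate arrays were all lower there, and its groups overlapped in Treg and Th1 cultures. A second Pdha1 probe set, at a mean signal of 324, gave 0.22 in Th17 cultures, the opposite sign. Its Treg value was 0.62 against -0.16 for the probe set used, and its Th1 value -0.04 against 0.18. Between untreated cultures it gave -1.04 for Treg minus Th1 and -0.64 for Th17 minus Th1, against 0.19 and 0.4. For Th17 minus Treg both were above 0 (0.39 and 0.22). The Pdha1 values thus rest on 1 of 2 probe sets. Pdhb, the E1 beta subunit, differed by -0.02 in Th17 cultures, -0.04 in Treg and 0.01 in Th1 cultures.

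Citrate synthase rose. Cs, which joins acetyl-CoA to oxaloacetate, had signals of 614, 676 and 628 on Th17 control arrays and 1220, 1210 and 888 on Th17 acetate arrays. On Treg arrays it was 588 and 568 in controls and 1140 and 1010 with acetate, and on Th1 arrays 679 and 860 against 1110 and 950. No acetate array overlapped the controls of its culture. The log2 difference was 0.77 ± 0.15 in Th17 cultures (adjusted p = 0.00331), 0.89 ± 0.18 in Treg (adjusted p = 0.00725) and 0.43 ± 0.18 in Th1 cultures (adjusted p = 0.191). The other 2 Cs probe sets gave 0.70 and 0.68 in Th17, 1.04 and 0.93 in Treg, and 0.35 and 0.68 in Th1 cultures. In Treg cultures the Cs call was lost without control replicate 2 or acetate replicate 1 (adjusted p up to 0.0843).

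Of the isocitrate dehydrogenases, the NADP-dependent mitochondrial enzyme rose in Th17 cultures and the subunits of the NAD-dependent enzyme were not called. Idh2 had signals of 97.3, 98.8 and 104 on Th17 control and 197, 228 and 194 on Th17 acetate arrays, a log2 difference of 1.02 ± 0.18 (adjusted p = 0.00203) or 2.03-fold. On Treg arrays it was 186 and 226 against 300 and 287 (0.51 ± 0.22, adjusted p = 0.151), and on Th1 arrays 126 and 206 against 286 and 242 (0.69 ± 0.22, adjusted p = 0.0892). All acetate arrays were again above their controls, and the Th17 controls were the lowest arrays of the series for this gene. Its other probe set, with a mean signal of 12, gave -0.07, 0.31 and -0.96 in the 3 cultures. The subunits of the NAD-dependent enzyme differed in Th17 cultures by 0.21 (Idh3a, catalytic), 0.10 (Idh3b) and 0.20 (Idh3g), with adjusted p-values of 0.597, 0.613 and 0.348. Idh3a reached 0.79 ± 0.31 in Th1 cultures (adjusted p = 0.152), where its acetate arrays read 541 and 946.

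The 2-oxoglutarate dehydrogenase complex, which makes succinyl-CoA, was not called with acetate. Its E1 subunit Ogdh differed by -0.01, 0.06 and 0.23 in Th17, Treg and Th1 cultures, and E2 subunit Dlst by -0.30, 0.04 and 0.41. For Dld, the E3 subunit shared with pyruvate dehydrogenase, the values were -0.37, -0.10 and 0.35. The lowest adjusted p among these 9 values was 0.166.

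The subunits of the next enzyme, succinyl-CoA ligase, gave unlike values, though the differences between them were not tested. Suclg1 encodes the alpha subunit common to both forms of the enzyme, and it rose in every culture. Its signals were 374, 339 and 376 on Th17 control and 679, 598 and 538 on Th17 acetate arrays, 285 and 316 against 557 and 477 on Treg arrays, and 391 and 411 against 628 and 736 on Th1 arrays. No groups overlapped, and the log2 differences were nearly equal: 0.73 ± 0.13 in Th17 cultures (adjusted p = 0.00268), 0.77 ± 0.16 in Treg (adjusted p = 0.00909) and 0.76 ± 0.16 in Th1 cultures (adjusted p = 0.0288). The Treg call was lost without Treg control replicate 1 or Treg acetate replicate 1, and the Th1 call without Th17 control replicate 3, either Th1 control array or Th1 acetate replicate 2. Suclg2, the beta subunit of the GTP-forming enzyme, fell in Th17 cultures, from 159, 174 and 170 to 138, 103 and 113 (-0.50 ± 0.16, adjusted p = 0.0445). In Treg and Th1 cultures it differed by -0.12 and 0.07. A second Suclg2 probe set gave -0.78 in Th17 cultures. The Suclg2 call held in 7 of 14 fits that left out 1 array and was lost without any 1 of the 3 Th17 control arrays, Th17 acetate replicate 2 or 3, or either Treg control array (adjusted p up to 0.151). Sucla2, the beta subunit of the ATP-forming enzyme, differed by 0.03 ± 0.15 in Th17 cultures, 0.01 ± 0.18 in Treg and 0.36 ± 0.18 in Th1 cultures.

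Values also ranged on both sides of 0 in succinate dehydrogenase, which has a flavoprotein (Sdha), an iron-sulfur subunit (Sdhb) and a pair of membrane anchors (Sdhc and Sdhd). Both anchors rose in Th17 cultures. Sdhc read 291, 303 and 249 on Th17 control and 459, 449 and 418 on acetate arrays, 287 and 314 against 493 and 474 on Treg arrays, and 407 and 333 against 542 and 475 on Th1 arrays. Its acetate arrays were higher throughout, and the log2 difference was 0.65 ± 0.13 in Th17 cultures (adjusted p = 0.0049), 0.68 ± 0.16 in Treg (adjusted p = 0.0168) and 0.46 ± 0.16 in Th1 cultures (adjusted p = 0.125). A second Sdhc probe set gave 0.11, 0.87 and 0.67, so the Th17 value rests on 1 of 2 probe sets. The Treg call of Sdhc was lost without any 1 of the 4 Treg arrays. Sdhd rose from 572, 651 and 526 to 1100, 1020 and 823 in Th17 cultures (0.74 ± 0.14, adjusted p = 0.00256). In Treg cultures Sdhd read 785 and 801 in controls against 1040 and 1150, and in Th1 cultures 840 and 990 against 973 and 994, where the groups overlapped. Sdhb read 1390, 1400 and 1410 on Th17 control and 1450, 1390 and 1290 on acetate arrays, and differed by -0.02 ± 0.10 in Th17 cultures, -0.04 ± 0.12 in Treg and 0.25 ± 0.12 in Th1 cultures.

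Sdha was the single gene that fell in the mean effect (-0.27 ± 0.09, adjusted p = 0.0454). Its signals were 575, 676 and 700 on Th17 control and 579, 458 and 471 on acetate arrays, 661 and 563 against 553 and 455 for Treg, and 661 and 696 against 606 and 622 for Th1 cultures. In Th17 cultures the groups overlapped, and in the other cultures the acetate arrays were lower. A second bright Sdha probe set gave a mean effect of -0.29. The call held in 3 of 14 fits that left out 1 array (adjusted p up to 0.137) and was not made after scaling to a common trimmed mean. It was lost without Th17 control replicate 2 or 3, Th17 acetate replicate 2 or 3, either Treg control array, Treg acetate replicate 2, or any 1 of the 4 Th1 arrays.

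**Figure D3:**
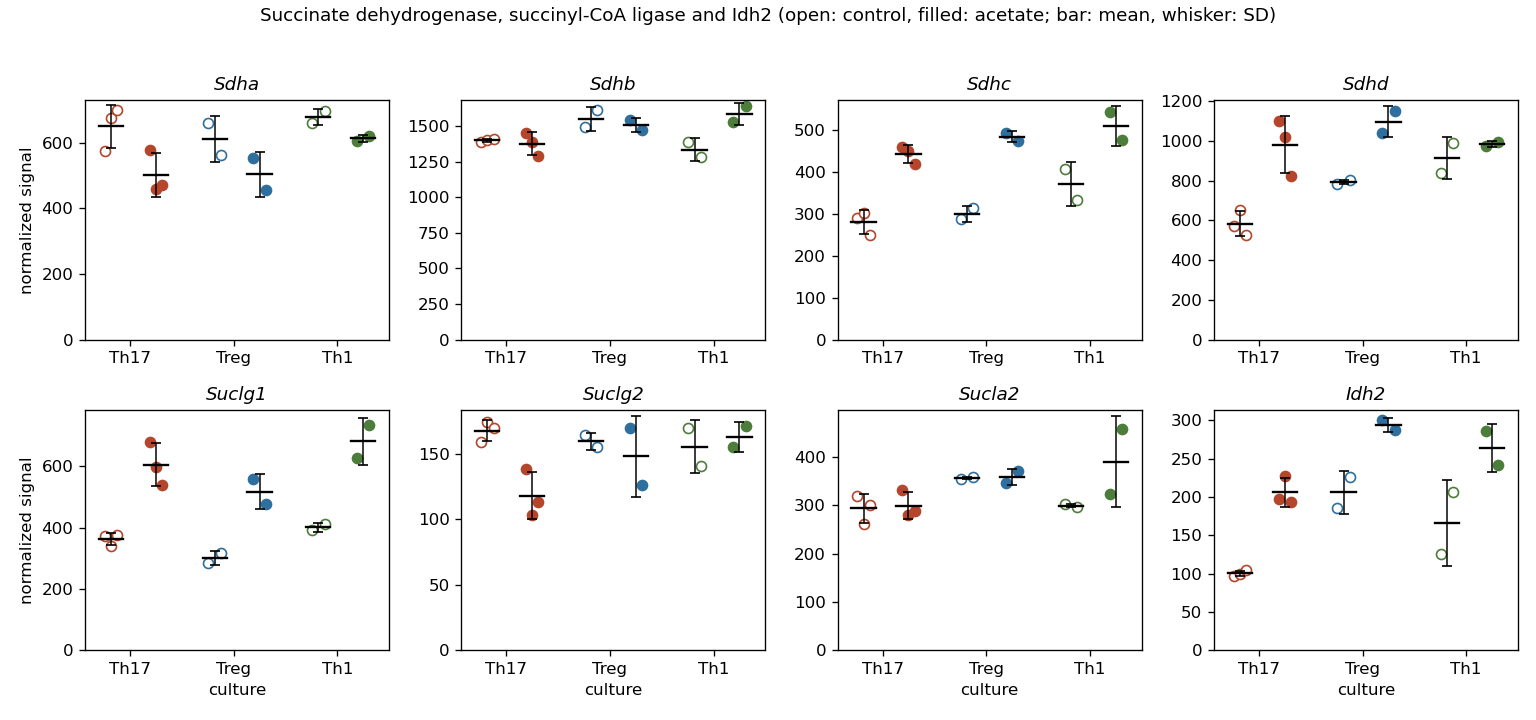
Each panel plots the normalized signal of 1 gene on every array (open points control, filled points acetate; bar the mean, whisker the SD; n = 3 for Th17, n = 2 for Treg and Th1 groups). Suclg1 rises from 363 to 605 in Th17 cultures while Suclg2 falls from 168 to 118 and Sucla2 stays at 294 and 300; Sdhc and Sdhd are higher with acetate, Sdhb is at 1400 and 1380 in Th17 cultures.

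The last steps of the cycle, fumarase and malate dehydrogenase, were higher with acetate in the mean effect. Fh1 encodes fumarase, and read 296, 266 and 293 on Th17 control and 674, 441 and 306 on acetate arrays. On Treg arrays Fh1 was 477 and 396 against 604 and 592, and on Th1 arrays 414 and 397 against 712 and 865. No groups overlapped, yet the Th17 acetate arrays spread over more than the control range, and only the mean effect was called (0.69 ± 0.15, adjusted p = 0.00339; Th17 0.66 ± 0.22, adjusted p = 0.0513). Mdh1, the cytosolic malate dehydrogenase of the malate-aspartate shuttle, had the largest rise of the 35 genes in Th17 cultures, from 783, 711 and 887 to 1800, 2020 and 1690. That was a log2 difference of 1.21 ± 0.15 (adjusted p = 2.86e-04), or 2.31-fold. On Treg arrays Mdh1 was 1280 and 1230 against 1980 and 1840 (0.60 ± 0.19, adjusted p = 0.0504), and on Th1 arrays 872 and 1210 against 1690 and 1280 (0.51 ± 0.19, adjusted p = 0.127). The other 2 bright Mdh1 probe sets gave 1.01 and 0.87 in Th17 cultures. Mdh2, the mitochondrial enzyme, rose in the mean effect by 0.33 ± 0.10 (adjusted p = 0.0175), with a second probe set at 0.38, a call lost without Treg control replicate 1 or Treg acetate replicate 1. Its Th17 groups overlapped (2480, 2040 and 2140 against 3350, 2420 and 2270), and its acetate arrays were higher in Treg (2420 and 2600 against 3170 and 2850) and Th1 cultures (2540 and 2350 against 3150 and 3710).

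The carnitine shuttle carries long chain acyl groups into mitochondria, and its first steps differed between untreated cultures. Cpt1a encodes the liver form of carnitine palmitoyltransferase at the outer membrane, the regulated entry step. On control arrays Cpt1a read 167 and 152 in Treg, 49.1 and 95.7 in Th1, and 90.1, 66.3 and 98.1 in Th17 cultures. Treg arrays stood above all others, by 1.18 ± 0.27 on the log2 scale over Th1 (adjusted p = 0.027), and Th17 lay below Treg by -0.90 ± 0.25 (adjusted p = 0.0337). Slc25a20, the carnitine-acylcarnitine carrier of the inner membrane, read 435 and 333 on Treg control arrays, 192 and 160 on Th1 control arrays, and 192, 186 and 208 on Th17 control arrays. It was 1.10 ± 0.17 higher in Treg than in Th1 (adjusted p = 0.00308), and the Th17 minus Treg difference was -0.95 ± 0.16 (adjusted p = 0.00162). The Slc25a20 calls held without any single array. Without normalization between arrays Slc25a20 was still called for Treg over Th1, but not for Th17 minus Treg, and Cpt1a was called in neither comparison. A second Slc25a20 probe set gave 0.36 for Treg minus Th1 and -0.58 for Th17 minus Treg. A dim second Cpt1a probe set (mean signal 12.3) gave 0.72 for Treg minus Th1 and -1 for Th17 minus Treg. A further Cpt1a probe set, below the filter at a mean signal of 7.06, gave -0.45 and 0.74, the opposite sign in both. Cpt2, which returns the acyl group to CoA in the matrix, read 48.5 and 70.5 in Treg, 75.4 and 111 in Th1 and 64.5, 65.8 and 83.6 in Th17 control arrays, and was called in none of these comparisons.

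With acetate, Slc25a20 rose to 280, 276 and 271 in Th17 cultures (0.49 ± 0.14, adjusted p = 0.0245) and to 293 and 277 in Th1 cultures (0.69 ± 0.17, adjusted p = 0.0429). In Treg cultures it read 352 and 341, within the range of its controls (-0.13 ± 0.17, adjusted p = 0.679). The F test across cultures gave an adjusted p of 0.194, so this difference was not called. The Th17 call was lost without Th17 control replicate 1 or 2 or acetate replicate 2. The Th1 call held in 2 of 14 fits that left out 1 array, those without Th17 acetate replicate 1 or Th1 control replicate 1. Cpt1a read 131, 111 and 122 on Th17 acetate, 134 and 152 on Treg acetate and 131 and 111 on Th1 acetate arrays, with log2 differences of 0.52 ± 0.22, -0.15 ± 0.27 and 0.78 ± 0.27 (adjusted p = 0.118, 0.777 and 0.119).

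**Figure D4:**
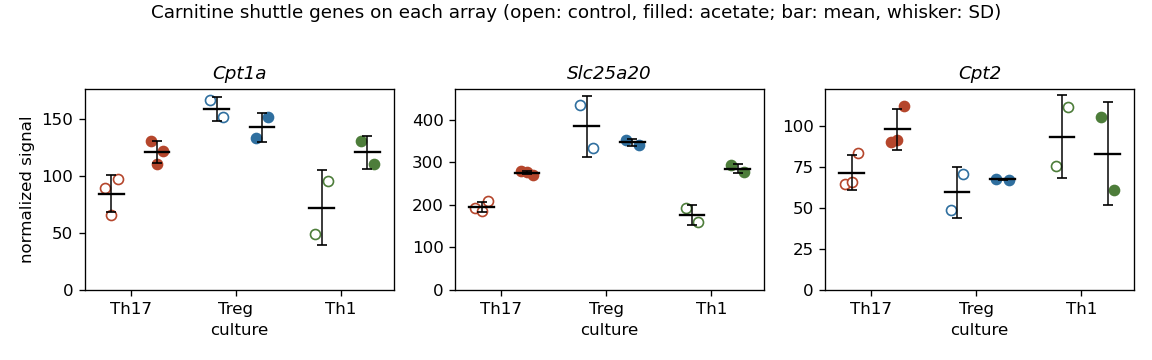
Normalized signal of Cpt1a, Slc25a20 and Cpt2 on each array (open points control, filled points acetate; bar the mean, whisker the SD; n = 3 for Th17, n = 2 for Treg and Th1 groups). In controls Cpt1a averages 159 in Treg against 72.4 in Th1 and 84.8 in Th17 cultures, and Slc25a20 averages 384 against 176 and 195.

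Of the acyl-CoA dehydrogenases, which open each round of β-oxidation, those for very long, long and short chains rose in Th17 cultures and the one for medium chains was not called. Acadvl (very long chain) read 289, 343 and 397 on Th17 control and 653, 782 and 560 on acetate arrays, and 299 and 320 against 609 and 563 on Treg arrays. On Th1 arrays it was 429 and 418 against 494 and 375, and there the groups overlapped. Its log2 difference was 0.95 ± 0.16 in Th17 cultures (adjusted p = 0.00192), 0.91 ± 0.20 in Treg (adjusted p = 0.0107) and 0.02 ± 0.20 in Th1 cultures. The F test for Acadvl gave an adjusted p of 0.167, and its Treg call was lost without either Treg control array or Treg acetate replicate 1. Acadl (long chain) rose from 776, 664 and 701 to 1190, 1180 and 1430 in Th17 cultures (0.82 ± 0.23, adjusted p = 0.0216). In Treg cultures Acadl read 874 and 621 against 1260 and 1390 (0.84 ± 0.28, adjusted p = 0.0634), and in Th1 cultures 1230 and 1330 against 2410 and 1120, arrays on either side of the controls. Acads (short chain) rose from 100, 150 and 144 to 244, 334 and 242 in Th17 cultures (1.05 ± 0.20, adjusted p = 0.00305). Its acetate arrays were also higher in Treg (207 and 194 against 318 and 294) and Th1 cultures (180 and 202 against 302 and 207), without a call. Acadm (medium chain) differed by 0.21, 0.14 and -0.10 in Th17, Treg and Th1 cultures. The Acadl call in Th17 cultures was lost without Th17 control replicate 2 or 3 or acetate replicate 3.

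In the later steps of β-oxidation, 1 gene rose in Th17 cultures. Hadh, the hydroxyacyl-CoA dehydrogenase for shorter chains, read 744, 924 and 802 on Th17 control and 1390, 1710 and 1330 on acetate arrays (0.84 ± 0.17, adjusted p = 0.0048). In Treg cultures it read 922 and 927 against 1380 and 1370 (0.57 ± 0.21, adjusted p = 0.096), and in Th1 cultures 874 and 1090 against 1080 and 668 (-0.20 ± 0.21, adjusted p = 0.631). The acetate arrays were higher in Th17 and Treg cultures and the Th1 groups overlapped. The F test gave an adjusted p of 0.164 for Hadh, and without Th1 acetate replicate 1 it was the single member called by that test. Its other 2 probe sets gave 1.20 and 1.08 in Th17 cultures, 0.99 and 1.68 in Treg cultures, and 0.17 and 0.35 in Th1 cultures, the opposite sign there. Echs1, the short chain enoyl-CoA hydratase, differed by 0.03, 0.17 and 0.12. Eci1, the isomerase for unsaturated chains, differed by -0.32 in Th17 cultures (adjusted p = 0.121), 0.16 in Treg and -0.41 in Th1 cultures (adjusted p = 0.187).

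Hadha and Hadhb encode the alpha and beta subunits of the trifunctional protein, which completes the oxidation of long chains, and they gave unlike values. Hadha rose in the mean effect (0.30 ± 0.09, adjusted p = 0.0186), with signals of 203, 205 and 200 against 269, 259 and 232 in Th17, 249 and 235 against 304 and 272 in Treg, and 200 and 212 against 284 and 238 in Th1 cultures. The call was lost without Treg control replicate 2 or Treg acetate replicate 1. Hadhb differed by -0.13 ± 0.09 in the mean effect (adjusted p = 0.318), and a second bright probe set gave -0.15. The signals of Hadhb were 494, 425 and 472 against 557, 496 and 461 in Th17, 567 and 634 against 424 and 527 in Treg, and 421 and 525 against 434 and 401 in Th1 cultures. The difference between these 2 genes was itself not tested. In the RefSeq tables of GRCm38.p6 they are neighbours transcribed away from each other on chromosome 5, with 272 bases between their start sites. The 250 bases before the Hadhb start (chr5:30155003-30155252, plus strand) are shown because 228 of them also lie within the 250 bases before the Hadha start on the minus strand:
Hadhb: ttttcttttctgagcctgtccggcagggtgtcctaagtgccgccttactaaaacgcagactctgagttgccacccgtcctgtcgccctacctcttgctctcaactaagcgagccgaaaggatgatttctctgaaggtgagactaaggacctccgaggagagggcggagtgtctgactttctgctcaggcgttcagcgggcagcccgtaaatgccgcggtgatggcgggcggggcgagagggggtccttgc
None of the motifs searched below occurred in this stretch.

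All 3 genes of the electron transfer flavoprotein system rose in Th17 cultures and in the mean effect. Etfb, the beta subunit, rose in every culture: from 547, 458 and 514 to 1500, 849 and 727 in Th17, from 579 and 603 to 1270 and 1130 in Treg, and from 650 and 507 to 1190 and 1450 in Th1 cultures. No groups overlapped. Its log2 difference was 0.94 ± 0.22 in Th17 cultures (adjusted p = 0.00932), 1.02 ± 0.27 in Treg (adjusted p = 0.0257) and 1.19 ± 0.27 in Th1 cultures (adjusted p = 0.0307). The mean effect of 1.05 ± 0.15 (adjusted p = 2.02e-04), or 2.07-fold, was the largest of the 35 genes. Etfa, the alpha subunit, read 445, 377 and 445 against 849, 732 and 565 in Th17 cultures (0.74 ± 0.15, adjusted p = 0.00479). In Treg cultures Etfa was 481 and 437 against 694 and 622 (0.52 ± 0.19, adjusted p = 0.0883), and in Th1 cultures 467 and 501 against 784 and 737 (0.65 ± 0.19, adjusted p = 0.0691). Etfdh, the ubiquinone oxidoreductase that takes up the electrons, rose from 95.3, 107 and 97.7 to 209, 188 and 170 in Th17 cultures (0.90 ± 0.15, adjusted p = 0.0016). On Treg arrays it was 145 and 114 against 185 and 185, and on Th1 arrays 133 and 138 against 179 and 151, higher with acetate in both without a call. For Etfb, Treg calls were lost without any 1 of the 4 Treg arrays, and the Th1 call without Th17 control replicate 3, either Treg control array, Th1 control replicate 2 or Th1 acetate replicate 2.

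**Figure D5:**
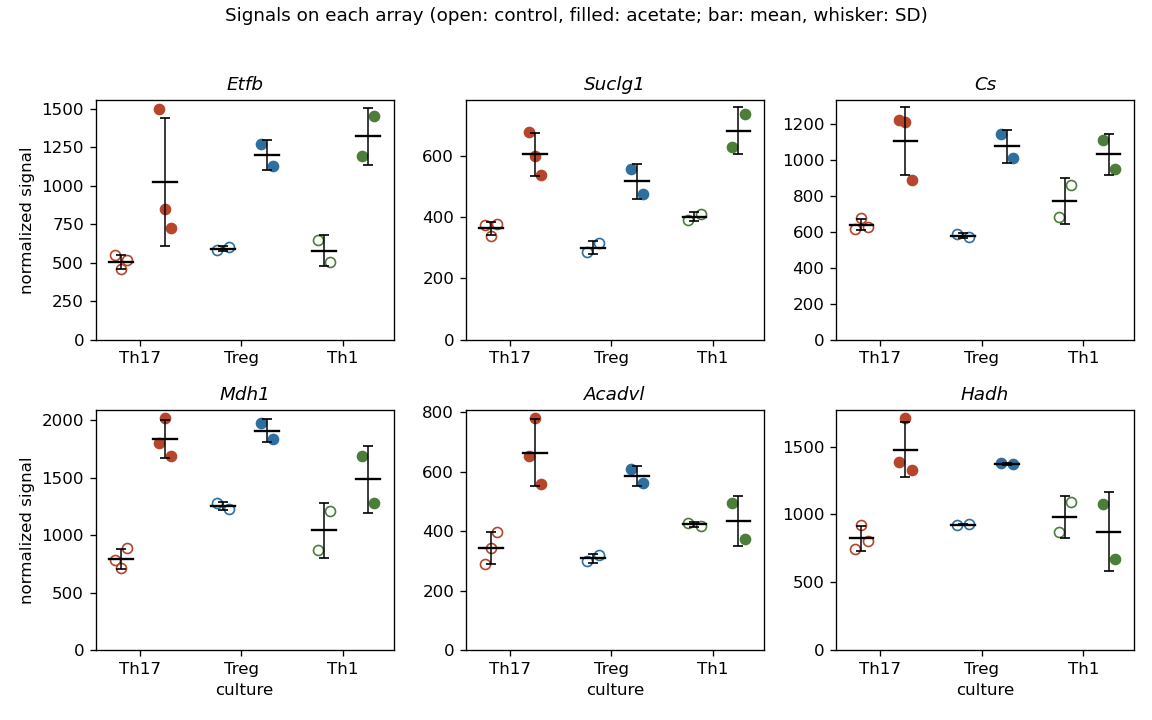
Normalized signal of Etfb, Suclg1, Cs, Mdh1, Acadvl and Hadh on each array (open points control, filled points acetate; bar the mean, whisker the SD; n = 3 for Th17, n = 2 for Treg and Th1 groups). Etfb rises from 506 to 1020 in Th17, 591 to 1200 in Treg and 579 to 1320 in Th1 cultures; Acadvl and Hadh are higher with acetate in Th17 and Treg cultures and overlap the controls in Th1 cultures.

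Besides the carnitine genes, 4 members differed between untreated cultures. These comparisons share control arrays. Th17 minus Treg gave 4 lower genes and 1 higher, against 6.01% and 5.31% of all genes tested. Idh2 was lower in Th17 by -1.02 ± 0.20 (adjusted p = 0.00517) and Mdh1 by -0.66 ± 0.17 (adjusted p = 0.0222), while Dlst was higher by 0.64 ± 0.18 (adjusted p = 0.0353). On control arrays Dlst read 199, 234 and 204 in Th17, 136 and 133 in Treg and 216 and 158 in Th1 cultures. The other Dlst probe sets, dimmer at mean signals of 33.6, 27 and 13.9, gave -0.12, 0.16 and -0.07 for Th17 minus Treg. The Dlst value thus rests on 1 of 4 probe sets. Without normalization the median of all genes moved to 0.41 for Th17 minus Treg. Dlst was then the only member called there, and the calls of all 4 lower genes were lost. Treg minus Th1 gave 2 higher genes, the carnitine genes above, and 0 lower, against 2.85% and 2.14%. Of the 35 genes 6 were lower and 2 higher there at an unadjusted p under 0.05. Th17 minus Th1 gave 1 lower gene, Sdhd (-0.65 ± 0.15, adjusted p = 0.024), and 0 higher, against 3.62% and 2.99%, with 8 lower and 1 higher at an unadjusted p under 0.05. Sdhd read 572, 651 and 526 in Th17 and 840 and 990 in Th1 control arrays. Without normalization this difference reversed to 0.03, as the median of all genes moved to 0.62, and 7 genes were called higher. Most of these calls rest on few arrays: those of Idh2, Mdh1, Dlst and Cpt1a were lost without Treg control replicate 2, and those of Mdh1, Dlst and Cpt1a without Treg control replicate 1 or Th17 control replicate 1 or 2. The Dlst call was also lost without Th17 control replicate 3, and that of Cpt1a over Th1 without either Treg control array or Th1 control replicate 1. Sdhd was not called without Th17 control replicate 1 or 3 or Th1 control replicate 2.

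Upstream sequences were available from RefSeq (GRCm38.p6) for 33 of the 35 genes, all but Idh3a and Sdhc. The 250 bases before each start were searched on both strands for motifs of factors known to act on mitochondrial genes. AAGGTCA, the binding site of the estrogen-related receptors, occurred before 1 of 33 members (Acadm) and 4.7% of 27025 genes. GCGCATGCG, the NRF1 motif, occurred before 3 (Ogdh, Acadm and Etfdh) and 1.64% of genes. The ETS motif CCGGAAGT, bound by GABP, occurred before 2 (Slc25a20 and Cpt2) and 3.23%. The cyclic AMP response element TGACGTCA occurred before 2 (Ogdh and Mdh2) and 1.77%, and the PPAR direct repeat element before 0, and 0.0407% of genes. A gene was counted if any of its start sites had a match. Ogdh had 6 start sites, with the NRF1 and cyclic AMP motifs before different ones, and the other members had 1 each. The PPAR element holds most of the letters of the estrogen-related receptor site. Of the members with a match, Etfdh, Slc25a20 and Mdh2 rose with acetate in the mean effect, and they are shown with the motif in capitals. In Etfdh (chr3:79628768-79629017, minus strand) the motif matched once on each strand, 128 and 127 bases before the start, and the overlapping matches together fill 10 bases. Slc25a20 lies at chr9:108661886-108662135 (plus strand) and Mdh2 at chr5:135778399-135778648 (plus strand).
Etfdh: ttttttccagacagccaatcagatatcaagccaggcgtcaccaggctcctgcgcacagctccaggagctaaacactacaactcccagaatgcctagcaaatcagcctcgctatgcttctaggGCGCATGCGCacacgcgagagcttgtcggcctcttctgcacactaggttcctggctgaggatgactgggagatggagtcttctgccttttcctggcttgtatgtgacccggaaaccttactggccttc
Slc25a20: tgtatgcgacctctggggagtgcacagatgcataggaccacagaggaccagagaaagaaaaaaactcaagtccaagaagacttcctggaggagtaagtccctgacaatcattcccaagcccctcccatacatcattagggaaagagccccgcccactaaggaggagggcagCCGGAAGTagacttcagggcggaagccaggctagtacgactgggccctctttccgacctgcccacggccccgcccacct
Mdh2: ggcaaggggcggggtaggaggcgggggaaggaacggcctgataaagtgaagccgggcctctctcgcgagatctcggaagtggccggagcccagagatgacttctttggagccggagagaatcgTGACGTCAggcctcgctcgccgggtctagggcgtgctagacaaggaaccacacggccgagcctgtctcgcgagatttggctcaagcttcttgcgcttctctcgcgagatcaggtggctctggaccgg
A match is a description of the letters only. The members called in all 3 cultures, Suclg1 and Etfb, held none of these motifs.

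Other genes of the same pathways were read beside the members. Of 18 further genes of the TCA cycle and pyruvate entry tested, 3 rose and 1 fell in Th17 cultures (11.7% and 8.66% of all genes). In Treg cultures 5 rose and 0 fell (7.04% and 5.44% of all genes). In Th1 cultures 0 were called (2.07% and 1.91% of all genes), and 7 had an unadjusted p under 0.05. Pdk3, a kinase that inhibits pyruvate dehydrogenase, rose from 150, 141 and 178 to 351, 338 and 327 in Th17 (1.11 ± 0.14, adjusted p = 4.05e-04) and from 119 and 109 to 318 and 310 in Treg cultures (1.44 ± 0.18, adjusted p = 5.15e-04). Pdp2, a phosphatase that activates it, fell by 1.12 on the log2 scale in Th17 cultures (adjusted p = 0.00197), and the pyruvate carrier subunit Mpc1 rose by 0.73 (adjusted p = 0.0101). Lipt1, which attaches lipoate to the dehydrogenase complexes, rose by 0.95 in Th17 and 0.84 in Treg cultures (adjusted p = 0.00565 and 0.041). In Treg cultures pyruvate carboxylase Pcx, which makes oxaloacetate from pyruvate, rose by 2.06 (adjusted p = 4.57e-04), and the malic enzymes, which convert malate to pyruvate, rose as well, Me1 by 1.82 (adjusted p = 0.0115) and Me2 by 1.79 (adjusted p = 0.0022). Of these Treg calls, that of Me1 was lost without Treg control replicate 2 or acetate replicate 1, and that of Lipt1 without either Treg control array, Treg acetate replicate 1, any 1 of the Th17 control arrays or Th17 acetate replicate 3. Me1 is dim in that comparison, at 4.24 and 1.85 against 20 and 16.1. For the mean effect 10 of the 18 rose and 1 fell (17.6% and 14.1% of all genes). The largest was the cytosolic Idh1 at 1.05 ± 0.24 (adjusted p = 0.00492), with Me1 at 0.95, Me2 and Pdk3 at 0.93 and Lipt1 at 0.90. Between untreated cultures Pcx was 1.97 ± 0.22 higher on the log2 scale in Th17 than in Treg (adjusted p = 1.25e-04), a call that held without any single array. Me1 (1.29) and Me2 (1.03) were higher there too, and Me2 (1.18) and Pcx (0.83) in Th17 over Th1. In Treg against Th1, Me1 (-2.18), Pcx (-1.14) and Pdk3 (-0.78) were lower. Each of these calls but the first was lost without 1 or more of the control arrays compared, and those of Me1 over Treg and Pcx over Th1 also without arrays outside the comparison.

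Of 21 further fatty acid oxidation genes tested, 1 rose and 2 fell in Th17 cultures, where 11.7% and 8.66% of all genes did. In Th17 cultures Acaa2, the mitochondrial thiolase, rose from 206, 206 and 218 to 462, 403 and 338 (0.91 ± 0.15, adjusted p = 0.00147). The acyl-CoA synthetases Acsl5 and Acsl3, which activate fatty acids, fell by 1.36 and 0.66 on the log2 scale (adjusted p = 0.00531 and 0.0356). The Acsl3 call was lost without any 1 of the Th17 control arrays or Th17 acetate replicate 1 or 2. In Treg cultures 1 rose and 0 fell (7.04% and 5.44% of all genes). This was Acsl6, of the same family, from 13.1 and 12.4 to 62.4 and 31.9 (1.60 ± 0.44, adjusted p = 0.0321), a call lost without either Treg control array or acetate replicate 1. In Th1 cultures 0 of 21 were called (2.07% and 1.91% of all genes), with 4 at an unadjusted p under 0.05. In the mean effect, with 17.6% of all genes higher and 14.1% lower, 3 rose (Acsl6 0.88, Acaa2 0.60 and Hsd17b10, a hydroxyacyl-CoA dehydrogenase, 0.57) and 3 fell, among them Acsl5 (-0.83) and the carnitine transporter Slc22a5 (-0.46). Between untreated cultures Acat1, the acetoacetyl-CoA thiolase, was lower in Th17 than in Th1 by -0.58 (adjusted p = 0.0223) and turned to 0.12 without normalization. That call was lost without Th17 control replicate 2 or 3 or either Th1 control array. Acat1 was also lower in Treg than in Th1 by -0.55 (adjusted p = 0.0485), in 3 of 14 fits that left out 1 array. Th17 minus Treg was 0.98 for Acsl3 and -0.56 for Acaa2 (adjusted p = 0.0132 and 0.0486), calls lost without Th17 control replicate 2 or either Treg control array, and for Acaa2 in 8 of 14 such fits.

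Those known regulators of these pathways that were tested were not called in any single culture. The 21 listed include PPAR and estrogen-related receptors, their coactivators and AMP kinase subunits, and 16 were tested. The rest were on the array but below the filter, so they are not shown to be unchanged. Of the 16, 0 were called in Th17, Treg or Th1 cultures, with 2, 2 and 1 at an unadjusted p under 0.05. Of all genes tested, 11.7% rose and 8.66% fell in Th17, 7.04% and 5.44% in Treg, and 2.07% and 1.91% in Th1 cultures. With 16 genes, a count of 0 is therefore near the share of all genes in Th1 cultures. In the mean effect, with 17.6% of all genes higher and 14.1% lower, 1 was called: Nrip1, a corepressor of nuclear receptors, fell by 0.82 on the log2 scale (adjusted p = 0.00891). Esrra, the estrogen-related receptor alpha, differed by -0.04 ± 0.17 in Th17 cultures, 0.41 ± 0.21 in Treg and 0.22 ± 0.21 in Th1 cultures.

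The respiratory chain receives the electrons of both pathways. Of 49 subunits of complexes I to V tested, 14 rose and 2 fell in Th17 cultures (11.7% and 8.66% of all genes). In Treg cultures 7 rose and 0 fell (7.04% and 5.44% of all genes). In Th1 cultures 0 were called (2.07% and 1.91% of all genes), and 10 had an unadjusted p under 0.05. For the mean effect 23 rose and 1 fell (17.6% and 14.1% of all genes). The median log2 difference was 0.24 in Th17 cultures, 0.22 in Treg and 0.10 in Th1 cultures, and without normalization 0.02, 0.27 and 0.43. Ndufv3, a subunit of complex I, rose from 1840, 2170 and 2300 to 3450, 4640 and 4210 in Th17 cultures (0.96 ± 0.19, adjusted p = 0.00379) and from 2030 and 1970 to 4370 and 4490 in Treg cultures (1.15 ± 0.23, adjusted p = 0.00685; lost without Treg control replicate 2 or acetate replicate 1). In Th1 cultures it read 2570 and 3050 against 2980 and 1620, which overlap. Cox7a2, of complex IV, rose by 0.56 ± 0.10 in Th17 cultures (adjusted p = 0.00245) and Uqcrfs1, the iron-sulfur protein of complex III, by 0.58 ± 0.11 (adjusted p = 0.00385). Ndufv2 and Ndufa1, of complex I, rose there by 0.71 and 0.53. In Treg cultures Ndufa1 (0.75), Ndufa4 (0.61), Ndufb3 (0.58) and Cox6a1, of complex IV (0.57), also rose, each with a call lost without 1 or more of the Treg arrays, and that of Ndufa4 held in 5 of 14 fits. After Ndufv3 (0.59), the mean effect was largest for Ndufa1 and Ndufa4 (0.52), Cox6a1 (0.51) and Uqcrfs1 (0.48). Between untreated cultures 1 subunit was called, Cox7a2, lower in Th17 than in Treg by -0.43 (adjusted p = 0.0262) and lost without Th17 control replicate 2 or 3 or either Treg control array.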

How the data were processed

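Values were signal intensities per probe set on a linear scale, made with MAS5 by the authors per the submitters' processing notes (version and target value not given in the sources used here). Of 45101 probe sets, 34945 carried 1 symbol in the platform annotation. Signals were taken as log2(signal + 3) and quantile normalized over the 14 arrays. The probe set with the highest mean stood for each of 18193 genes, and genes were tested whose mean reached the 40th percentile (a signal of 9.11). The number of arrays limits the precision. Limma 3.58.1 (R 4.3.3) fitted 6 group means with 8 residual degrees of freedom, with eBayes and a trend, and p-values were adjusted by Benjamini-Hochberg over all genes tested. The script was tested on simulated data.

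The 35 members, the other gene lists and the tests were chosen with earlier results of these data known. All members called in any comparison are named with their values, as is the largest of each step; called genes of other lists are named up to 5 per list and comparison by size. Alternatives were no normalization, scaling to a trimmed mean, other pseudocounts, no filter, the mean of a gene's probe sets, a replicate block and leaving out each array. Replicate numbers were not taken to pair arrays in the main fit, as the sources used here do not state whether they do. RefSeq gene and promoter tables were of GRCm38.p6, and their coordinates were used for start sites only.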

Additional observations from a re-analysis of the deposited data

Results flagged for a closer look

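The acetate effect on Pcx, pyruvate carboxylase, differed between cultures (limma F test, adjusted p = 0.00882). Pcx rose in Treg cultures, from 38.7 and 50.7 to 231 and 164 (log2 difference 2.06 ± 0.25, adjusted p = 4.57e-04). In Th17 cultures it read 170, 182 and 198 against 131, 175 and 160 (-0.24 ± 0.20), and in Th1 cultures 86.4 and 119 against 83 and 62.4 (-0.48 ± 0.25). The Treg acetate arrays thus lay near or above the Th17 arrays, while the Treg control arrays were the lowest of all. The F test passed in 12 of 14 fits that left out 1 array, and not without Treg control replicate 1 or Treg acetate replicate 1 (adjusted p up to 0.0797).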

How the results depend on the processing

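Of 49 called member values, 18 were still called without normalization between arrays, 48 after scaling to a trimmed mean, 49 with either other pseudocount, 46 without the filter, 34 with the mean of a gene's probe sets and 38 with the replicate block. Without normalization acetate gave 2 called members in Th17 cultures, 0 in Treg cultures and 1 in Th1 cultures, and there were 7 for untreated Th17 minus Th1, 1 for Treg minus Th1 and 1 for Th17 minus Treg. All genes shifted too, so that 24.2% of called genes were higher in Th17 with acetate, against 57.4% after normalization, 44.1% against 55.5% for the mean effect, 46% against 56.4% in Treg and 79.7% against 52% in Th1. Between untreated cultures 96% of called genes were higher in Th17 than Th1 against 45.2%, 85.3% than Treg against 46.9%, and 76.6% in Treg than Th1 against 57.1%. Sdhd and Acat1, lower in untreated Th17 than Th1, turned to 0.03 and 0.12. Scaling gave 9 members in Treg and 2 for Th17 minus Th1. The mean of probe sets gave 0, 1 and 1 members for Th17 minus Th1, Treg minus Th1 and Th17 minus Treg.

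Arrays of the same number did not deviate together in all pairs (r of 0.15, 0.16 and -0.06 for Th17, 0.06 for Treg and -0.16 for Th1, and 2 of 3 Th17 pairs best with their own number). With the number as a replicate block, members called were 13 in Th17, 5 in Treg, 1 in Th1 and 16 for the mean effect, and 0, 1 and 2 between untreated cultures in the order above; over all genes 226 were called in Th1 against 435, 397 for Th17 minus Th1 against 721, and 29 for the difference between cultures against 87. Leaving out 1 array gave 12 to 16 members in Th17, 0 to 8 in Treg, 0 to 6 in Th1, 16 to 18 for the mean effect, 0 to 2, 1 to 3 and 1 to 6 between untreated cultures, and 0 to 1 for the difference between cultures. Over all genes these fits called 1365 to 2524 in Th17 (2220 with all arrays), 357 to 1637 in Treg (1363), 74 to 960 in Th1 (435), 2739 to 3666 for the mean effect (3469), 218 to 1007, 134 to 725 and 478 to 1496 between untreated cultures (721, 545 and 1236) and 1 to 519 for the difference between cultures. Without normalization 552 genes were called in Treg, 222 in Th1, 2308 for the mean effect, 3025 for Th17 minus Th1 and 265 for Treg minus Th1. Without the filter 285 were called in Th1, and scaling and probe-set means gave 55 and 54 for the difference between cultures. Fewer arrays or genes aside, the cause was not tested. Signals near the filter have a larger error, and no probe set was tested against background.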

Other observations

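Of 27 genes of mitochondrial DNA maintenance, protein import and the outer membrane, 1 rose and 2 fell in Th17 cultures (11.7% and 8.66% of all genes tested). In Treg cultures 1 rose and 0 fell (7.04% and 5.44% of all genes). In Th1 cultures 0 were called (2.07% and 1.91% of all genes), and 6 had an unadjusted p under 0.05 (limma). The median log2 difference was -0.04 in Th17 cultures, 0.04 in Treg cultures and 0.17 in Th1 cultures, and without normalization -0.40, -0.08 and 0.47. The gene that rose in both was Vdac1, the main metabolite channel of the outer membrane, from 1400, 1690 and 1550 to 2810, 3540 and 2960 in Th17 (1.00 ± 0.14, adjusted p = 6.45e-04) and from 1410 and 1130 to 2650 and 2730 in Treg cultures (1.09 ± 0.17, adjusted p = 0.00206). Polg, the mitochondrial DNA polymerase, and Dnm1l, a fission factor, fell by 0.60 and 0.45 on the log2 scale in Th17 cultures (adjusted p = 0.0418 and 0.039), calls that held in 5 and 7 of the 14 fits that left out 1 array. Both were lost without any 1 of the Th17 control arrays, Th17 acetate replicate 1 or 2, or either Treg control array, and Polg also without either Treg acetate array. In the mean effect 6 of the 27 rose and 1 fell (17.6% and 14.1% of all genes), led by Vdac1 (0.78), Tfb1m, a mitochondrial ribosomal RNA methyltransferase (0.60), the import receptor Tomm70a (0.49) and the chaperonin Hspe1 (0.39), and Polg fell (-0.46). Untreated Th17 cultures were higher than Treg for Hspa9, the matrix chaperone (1.07), and Tfb2m, a mitochondrial transcription factor (0.66), calls lost without either Treg control array.

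Among 9 genes of glutamine, acetate and ketone body entry, Got1, the cytosolic aspartate aminotransferase that works with Mdh1 in the malate-aspartate shuttle, was called in every culture. It rose from 336, 403 and 389 to 520, 627 and 628 in Th17 (0.65 ± 0.13, adjusted p = 0.00428), from 245 and 254 to 536 and 469 in Treg (1.00 ± 0.16, adjusted p = 0.00209) and from 363 and 340 to 538 and 551 in Th1 cultures (0.63 ± 0.16, adjusted p = 0.0467). The Th1 call held in 1 of 14 fits that left out 1 array, that without Th17 acetate replicate 1. Got2, the mitochondrial form, rose in Th17 cultures by 0.42 (adjusted p = 0.0404, in 5 of 14 fits, lost without any 1 of the Th17 control arrays, Th17 acetate replicate 1 or 2, or any Treg array), and Gpt2, an alanine aminotransferase, fell there by 1.41 on the log2 scale (adjusted p = 0.0087). In the mean effect Bdh2 (0.99), Got1 (0.76), Got2 (0.38) and Bdh1 (0.31) rose. The acetyl-CoA synthetases, which activate acetate, went different ways: the cytosolic Acss2 rose in Th17 cultures from 48.2, 46.8 and 50 to 76.2, 103 and 92.6 (0.86 ± 0.26, adjusted p = 0.0322), and the mitochondrial Acss1 fell in Treg cultures from 114 and 101 to 41.1 and 44.8 (-1.27 ± 0.35, adjusted p = 0.0322). The Acss1 call was lost without any 1 of the Treg arrays, and that of Acss2 without any 1 of the Th17 control arrays or Th17 acetate replicate 2 or 3. On control arrays Acss1 was 2.15 ± 0.35 higher on the log2 scale in Treg than in Th1 cultures (adjusted p = 0.00409). Untreated Th17 minus Treg was -2.12 for Acss1, 1.29 for Gpt2, -0.73 for Oxct1, which activates ketone bodies, and 0.58 for Got1, and the last 3 calls were lost without either Treg control array.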
